A study of Mus musculus with 36 samples.

Results

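The regions described here are stretches of mouse chromatin where acetylation of histone H3 at lysine 27 (H3K27ac) was called as a peak in untreated mice of both vectors and in ethanol-treated mice of neither. Peaks of the 4 H3K27ac lists that overlapped or touched on the assembled chromosomes were merged into 149468 regions. Of these, 2555 overlapped a peak of both untreated lists and no peak of either ethanol list. The regions were chosen by list membership, that is by the measured values themselves, so presence and absence of H3K27ac at them is a description and not a finding. The samples were dorsal hippocampus of male mice grown to 8 weeks, with vectors injected at that age or later, as 12 groups of 3 replicates, with 24 chromatin immunoprecipitation libraries and 12 inputs. Control mice carried a control vector (labelled Control), and knockdown mice carried an adeno-associated virus (AAV2/9; U6.shACSS2.CMV.EGFP) injected into the dorsal hippocampus, so any cell that the virus did not reach kept its Acss2. Mice of each vector were untreated or received ethanol into the peritoneal cavity at 2 g per kg as a 20% solution, and neither the time from injection to dissection nor a saline injection for untreated mice is described in the labels. Each group of 3 replicates is represented by a single peak list, so no value below has a replicate check and no p-value is given.

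H3K27ac marks active promoters and active enhancers, which are stretches of DNA, often inside or between genes, that raise the transcription of a gene some way off. Histone acetyltransferases take the acetyl group from acetyl-CoA, and histone deacetylases remove it. Ethanol is oxidised mostly in the liver to acetate, and the enzyme ACSS2 turns acetate into acetyl-CoA, which in neurons it can do in the nucleus. In whole tissue, fewer cells that carry the mark at a place and less of the mark per cell cannot be told apart.

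Sequence could be shown for regions that overlapped an annotated start of transcription in the RefSeq promoter table (build GRCm38.p6, the same assembly as mm10). Of the 2458 regions on chromosomes in that table, 64 overlapped a promoter window, which runs from 250 bases before a start to 50 after it. The 6 sequences below belong to 5 of the highest-ranked regions overall or at gene ends, and to the Ccdc85a region, of low rank, which was taken for its H3K9ac pattern. They are shown because the region covered at least 100 bases before the start, so the acetylated stretch and the printed letters coincide in good part. Each is the 250 bases before the start, 5′ to 3′ on the strand of the gene, in lower case, with matches to the motifs named later in capitals.
Xiap, chrX:42067586-42067835, plus strand: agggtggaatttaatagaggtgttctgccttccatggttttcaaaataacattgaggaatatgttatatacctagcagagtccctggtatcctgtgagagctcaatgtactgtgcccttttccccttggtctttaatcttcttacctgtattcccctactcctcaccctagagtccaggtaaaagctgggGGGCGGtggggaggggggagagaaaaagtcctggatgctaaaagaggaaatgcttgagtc
Rpn1, chr6:88084223-88084472, plus strand: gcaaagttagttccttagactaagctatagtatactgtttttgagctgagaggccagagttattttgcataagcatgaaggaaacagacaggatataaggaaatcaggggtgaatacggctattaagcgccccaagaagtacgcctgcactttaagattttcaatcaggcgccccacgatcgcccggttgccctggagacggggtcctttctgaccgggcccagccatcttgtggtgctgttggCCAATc
Inpp4a, chr1:37299588-37299837, plus strand: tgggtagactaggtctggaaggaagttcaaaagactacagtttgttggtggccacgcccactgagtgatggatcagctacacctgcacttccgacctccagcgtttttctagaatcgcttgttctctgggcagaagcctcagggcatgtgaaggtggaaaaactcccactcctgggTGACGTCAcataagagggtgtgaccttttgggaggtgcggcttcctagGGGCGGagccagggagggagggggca
Rpl6, chr5:121204251-121204500, plus strand: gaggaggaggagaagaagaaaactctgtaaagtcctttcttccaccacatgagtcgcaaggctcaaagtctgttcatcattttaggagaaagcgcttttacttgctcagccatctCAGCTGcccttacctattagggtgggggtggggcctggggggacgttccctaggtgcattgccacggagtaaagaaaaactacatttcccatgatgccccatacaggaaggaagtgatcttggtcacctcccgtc
Neurod6, chr6:55681264-55681513, minus strand: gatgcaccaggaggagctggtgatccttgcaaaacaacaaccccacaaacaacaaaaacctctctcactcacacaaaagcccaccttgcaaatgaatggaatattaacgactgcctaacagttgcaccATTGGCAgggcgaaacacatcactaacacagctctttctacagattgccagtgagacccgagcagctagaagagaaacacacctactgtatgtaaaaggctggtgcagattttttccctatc
Ccdc85a, chr11:28584325-28584574, minus strand: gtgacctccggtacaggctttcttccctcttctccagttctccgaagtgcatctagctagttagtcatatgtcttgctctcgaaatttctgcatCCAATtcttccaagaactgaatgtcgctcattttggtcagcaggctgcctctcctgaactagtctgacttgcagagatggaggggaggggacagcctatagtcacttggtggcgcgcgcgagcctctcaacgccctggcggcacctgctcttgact
Xiap encodes an inhibitor of caspases, Rpn1 a subunit of the oligosaccharyltransferase complex, Inpp4a a phosphatase of inositol lipids, Rpl6 a protein of the large ribosomal subunit, and Neurod6 a transcription factor of pyramidal neurons. Xiap and Ccdc85a have these starts inside the gene as annotated, and the other 4 lie at the outer start of their gene. Inpp4a carried a cyclic AMP response element palindrome (TGACGTCA) within the printed stretch, and its region ran over 195 of the 250 bases. The Neurod6 region ran over 219 of the 250 bases and that of Xiap over 231.

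A single microRNA hairpin of the RefSeq table lay in these regions, Mir23b at chr13:63300484-63300557 on the plus strand. The region that held it, chr13:63300353-63300686, lay at an end of Fancc, scored 3.61 in untreated controls and 5.52 in untreated knockdown mice, and had ethanol peaks 72 and 114 bp away. Its mature 5p arm is shown with the seed, bases 2 to 8, in capitals, since the seed is what pairs with target messages.
mmu-miR-23b-5p: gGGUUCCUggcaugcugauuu

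The 4 H3K27ac lists held between 86110 and 119317 peaks on the assembled chromosomes, the fewest in ethanol-treated controls and the most in ethanol-treated knockdown mice. Read depth is unknown for all of them. The tissue label was checked against marker genes by asking for an H3K27ac peak within 1 kb of a gene end. Of 20 excitatory neuron markers, 18 had one in each of the 4 lists, as did 19 of 20 housekeeping genes. Astrocyte markers had one for 16 to 18 of 20 genes and oligodendrocyte markers for 16 to 19 of 22. Markers of inhibitory neurons had one for only 7 to 10 of 20 genes. Those of endothelial and mural cells had one for 8 to 10 of 20, of ependymal cells for 6 to 8 of 14 and of microglia for 5 to 8 of 20. Genes of other tissues had one for 8 to 10 of 24, so the check did not set inhibitory neuron markers clearly apart from them. The lists hold no RNA, so the knockdown of Acss2 itself could not be checked in them.

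The 2555 regions were 1.71% of all 149468 regions, and the mirror pattern, in both ethanol lists and neither untreated list, held 4343 regions or 2.91%. The other 4 patterns of exactly 2 lists held 9752 regions (both knockdown lists), 5088 (control untreated with knockdown ethanol), 2281 (control ethanol with knockdown untreated) and 1562 (both control lists). Regions in both untreated lists alone were therefore 9.99% of the 25581 regions held by exactly 2 lists, and the fourth most frequent of the 6 patterns. The pairs that share a treatment, 2555 and 4343 regions, thus fell within the range set by the pairs that share neither treatment nor vector, 2281 and 5088. Of the 51633 regions that both untreated lists held, 40548 were in both ethanol lists as well. A further 7087 were in the knockdown ethanol list alone of the ethanol lists and 1443 in the control ethanol list alone, which leaves 4.95% in neither. The same share for the mirror pattern was 8.12% of 53495 regions. The count depended strongly on how weak peaks were treated, and it was 1385 when all 4 lists were held to at least 2 times the lowest score of any list.

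**Figure D1:**
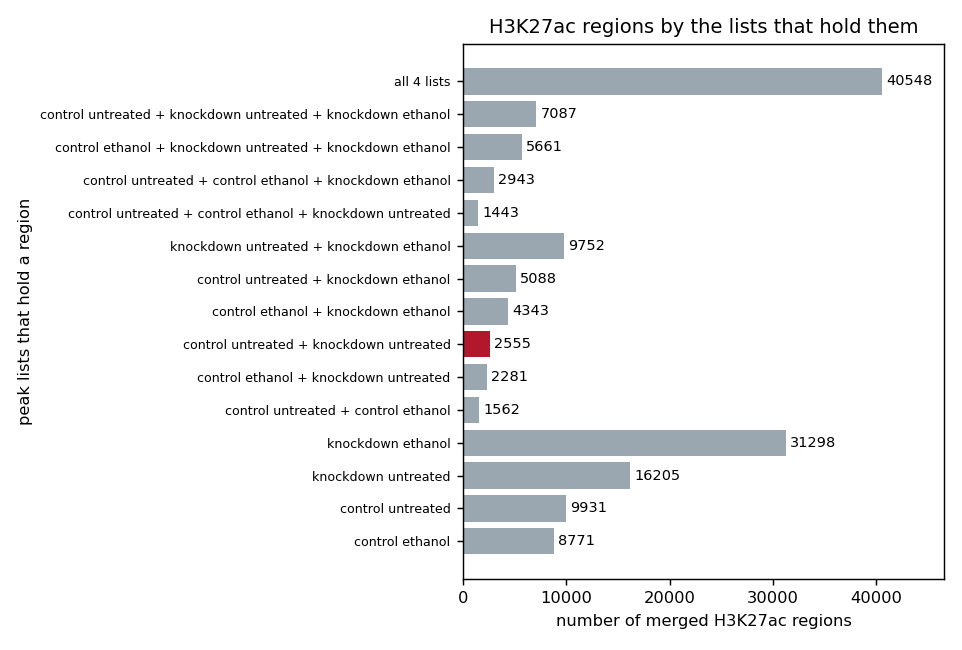
Number of merged H3K27ac regions (x axis) for each combination of the 4 peak lists that hold a region (y axis). The bar in red marks the 2555 regions in both untreated lists and no ethanol list, between the 2281 and 4343 regions of neighbouring 2-list patterns and far below the 40548 regions of all 4 lists.

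The regions were narrow and their peaks were weak within each list, as were regions of the other patterns of 2 lists. The score of a peak is the authors' −log10 of a q-value, and it is used here only to rank peaks inside a list. In the control untreated list the regions had a median score of 5.23, from 3.02 to 23.3, and in the knockdown untreated list 4.93, from 3.03 to 52.9. These medians lay at the 26.1 and 21.7 percentiles of their lists. Regions held by all 4 lists had median percentiles of 71.6 and 77.1 in the same lists. A score at or above the list median in both untreated lists was found for 119 regions (4.66%), and for 349 regions (8.04%) of the mirror pattern in its own lists. Of the 119, 6 lay at a gene end, 69 inside genes and 44 outside, and 81 had an ethanol peak within 500 bp. Median width was 276 bp with quartiles of 223 and 352 bp, close to the size of about 250 bp to which the chromatin was sheared, whereas regions of all 4 lists had a median of 915 bp. Across the 6 patterns of 2 lists, median widths ran from 269 to 317 bp and median percentiles from 21.7 to 30.6. Of the 2555, 146 were over 500 bp wide and 1 was over 1000 bp. In 2528 regions each untreated list contributed a single peak, and the stretch that both peaks shared covered a median of 50.5% of the region. All 2555 together covered 765 kb.

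**Figure D2:**
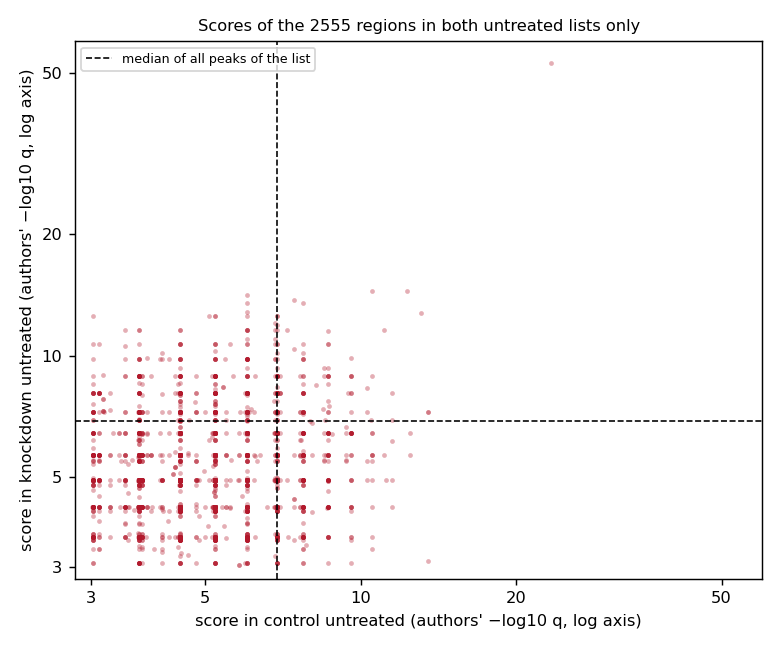
Score in the control untreated list (x axis) against score in the knockdown untreated list (y axis), both the authors' −log10 q on log axes, with 1 point per region and dashed lines at the median score of all peaks of each list. Most points lie below both medians, 119 lie on or above both, and a single region near Saraf stands apart at 23.3 and 52.9.

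Ranked by the smaller of its 2 score percentiles, the highest region was chr8:34441335-34441623, inside the noncoding gene Gm39159 and nearest to Saraf, which encodes a regulator of store-operated calcium entry. It scored 23.3 in untreated controls and 52.9 in untreated knockdown mice, and the nearest ethanol peaks were 6965 bp (control) and 6260 bp (knockdown) away.
A region nearest to Lyzl1 (chr18:4199119-4199281), overlapping the pseudogene Gm10557, scored 12.3 and 14.5 and had no ethanol H3K27ac peak within 65236 bp. It carried H3K9ac peaks in both untreated lists and in the knockdown ethanol list. A smaller percentile of 75 or more was reached by 3 regions in all, these among them.
A region nearest to Tmem17, whose protein belongs to the ciliary transition zone, scored 11.1 and 11.6. The Anks1b region, in a gene for a postsynaptic protein, scored 10.5 and 14.5 and had ethanol peaks 438 and 418 bp away. The Dab1 region, in the gene of an adaptor of reelin signalling, scored 10.5 and 8.92 with ethanol peaks 5716 and 4439 bp away. Regions inside Cadm1 (synaptic adhesion), Map1b (a microtubule-associated protein), Klf6 (a transcription factor) and Gldc (glycine cleavage) were also among the 15 highest, each with an ethanol peak within 275 bp. Others of these 15 were nearest to Tnks1bp1, Abhd2, Camk1g and 3110009E18Rik, outside protein-coding genes, and in Xiap. High rank thus went both with regions that stood far from any ethanol peak and with regions beside one.

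Although no ethanol peak touched these regions, most had one close by. The nearest peak of either ethanol list was within 100 bp for 436 regions, within 500 bp for 1603 (62.7%, 95% Wilson interval 60.8 to 64.6%, counting error only), and over 10 kb away for 198 (7.75%). The median distance was 323 bp. A control ethanol peak was within 500 bp of 910 regions (35.6%) and a knockdown ethanol peak of 1466 (57.4%). The knockdown ethanol list also held 119317 peaks against 86110, and the part of list length in this difference was not tested. For the mirror pattern, an untreated peak was within 500 bp of 51.6% of regions, with a median distance of 471 bp. The other 4 patterns of 2 lists had a peak of their absent lists within 500 bp of 43.6 to 61.0% of regions. The share of 62.7% was thus the highest of the 6, just above the 61.0% of regions in both control lists only, whose interval of 58.6 to 63.4% overlaps it. Each share was counted against a different pair of absent lists. That pair held 86110 and 119317 peaks here, 101690 and 119317 for both control lists only, and 89935 and 101690 for the mirror pattern. For both knockdown lists only, at 43.6%, it held 89935 and 86110. The part of list length in the order of the 6 shares was not tested. A region held by all 4 lists lay within 1 kb of 921 regions (36.0%), and within 1 kb of 32.2% of regions of the mirror pattern. Many regions of both patterns thus stood beside a stretch called in every list. Without regions that had an ethanol peak within 500 bp, 952 were left.

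**Figure D3:**
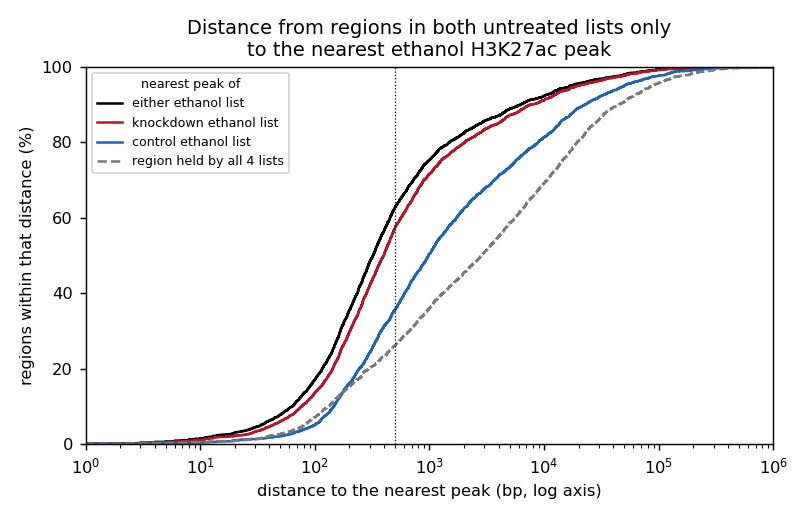
Share of the 2555 regions (y axis, percent) that have a peak within a given distance (x axis, bp, log axis), for the nearest peak of either ethanol list, of each ethanol list, and of a region held by all 4 lists. The dotted line marks 500 bp, where the curves stand at 62.7% for either ethanol list, 57.4% for knockdown ethanol, 35.6% for control ethanol and 26.1% for regions of all 4 lists.

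Regions just outside the rule, in both untreated lists and exactly 1 ethanol list, numbered 8530, with a median ethanol score of 6.51, and in 1056 of them the ethanol score was under 4. The lowest ethanol scores belonged to regions inside Ext2 (3.01), Rtf1 (3.01) and Slc2a9 (3.01), all 3 from the knockdown list. At the Slc2a9 region, the gene of a urate transporter, the untreated scores were 6.04 (control) and 7.24 (knockdown), above those of most regions that met the rule. Just inside the rule, the lowest ranks belonged to regions in Il11ra2 and Gm13305, both with scores of 5.82 and 3.03, and in Ago2, the gene of an Argonaute protein, with 3.02 and 4.22. These regions were picked as the lowest on each side, so their low scores follow from that choice.

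By the midpoint of the region, 150 (5.87%) lay within 1 kb of an end of a protein-coding gene, 1773 (69.4%) inside a gene and 632 (24.7%) outside genes. The mirror pattern gave 7.99, 67.4 and 24.6%, all regions 13.9, 62.2 and 24.0%, and regions of all 4 lists 33.5, 47.4 and 19.1%. The interval for the gene-end share, 5.02 to 6.85%, lay below the share of the mirror pattern. It held the 6.27, 6.66 and 6.66% of 3 of the other patterns of 2 lists, and the fourth, control ethanol with knockdown untreated, stood at 7.32%. The gene table gives no strand, but 122 of the 150 lay at a gene with an entry in the promoter table, and 67 of these were at the start and 55 at the other end. The highest-ranked gene-end region was that of Rpn1 (chr6:88084152-88084354), with scores of 8.65 in untreated controls and 8.92 in untreated knockdown mice and ethanol peaks 164 and 157 bp away. Nbl1, which encodes an antagonist of bone morphogenetic proteins, had its region at the other end, with scores of 7.75 and 10.7. The Inpp4a region (chr1:37299573-37299782) scored 6.97 and 8.07 and lay 129 and 90 bp from ethanol peaks. At Rpl6 (chr5:121203962-121204391) the scores were 8.65 and 6.44, with ethanol peaks 199 and 175 bp away. The start-side regions of Rpn1, Inpp4a and Rpl6 thus stood beside ethanol peaks. The nearest region held by all 4 lists was 157, 90 and 174 bp away from them.
The region before Neurod6 (chr6:55681295-55681709) scored 6.04 and 10.7. Its nearest control ethanol peak was 114 bp away and its nearest knockdown ethanol peak 4041 bp away, and it carried H3K9ac in both untreated lists and in the knockdown ethanol list.
Spata13 was the only one of the 15 highest gene-end regions with no ethanol peak within 10 kb, at 68691 and 48028 bp, and it scored 6.81 and 7.71. P2ry6 had its nearest ethanol peaks 1727 and 1311 bp away. The remaining gene-end regions of that rank belonged to Tfb1m, Zc3h3, 2610507B11Rik with Rskr, Vcpip1, Zdhhc13, Kifbp, Phyhip and Inhbc.

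The promoters that overlapped these regions, 68 windows of 64 genes, were intermediate in base composition. Their median GC content was 54.2%, against 62.0% for promoters in regions of all 4 lists and 46.7% for promoters in no H3K27ac region. The ratio of observed to expected CpG had a median of 0.412, against 0.766 and 0.196. Promoters in regions of the mirror pattern had medians close to these regions, 55.3% and 0.452, and all promoters had 52.7% and 0.384. A ratio over 0.6 was found in 33.8% of the windows and in 33.3% of those in the mirror pattern. It was found in 72.6% of those in regions of all 4 lists and in 35.8% of all 32851 windows. The motifs searched, on both strands, were the GC box (GGGCGG), the CCAAT box (CCAAT), the TATA box (TATAAA), the ETS site (CCGGAAG), the NRF1 site (GCGCATGC) and the cyclic AMP response element palindrome named above. Also searched were the AP-1 site (TGANTCA), a core of the MEF2 type (TAAAAATA), an RFX motif (GTTGCCAT) and a nuclear factor I motif (TTGGCA). The E-box CACGTG, bound by clock factors, was searched too. The last motifs were the E-box CAGCTG, bound by factors of the basic helix-loop-helix class, and a further E-box of that class, CAGATG. The nuclear factor I motif can overlap a CCAAT box read on the other strand, as it does before Neurod6. A GC box was present in 23 of 68 windows (33.8%, interval 23.7 to 45.7%), against 65.2% in regions of all 4 lists and 35.7% of all windows. ETS sites were in 5.88% of the windows against 8.86% of all windows, CCAAT boxes in 38.2% against 37.4%, and TATA boxes in 13.2% against 13.6%. The E-box CAGCTG was in 20.6% of the windows and in 16.3% of all windows. For these 5 motifs the interval held the share of all promoter windows, and each match is a description of letters, not of binding.

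H3K9ac, a mark of active promoters that the rule did not use, was rare at these regions. It was present at 130 regions (5.09%) in the control untreated list, 54 (2.11%) in control ethanol, 143 (5.60%) in knockdown untreated and 156 (6.11%) in knockdown ethanol. Over all H3K27ac regions the shares were 19.0, 14.3, 18.5 and 20.7%, and in regions of all 4 lists 57.5, 47.7, 55.8 and 60.3%. No H3K9ac list had a peak at 2263 of the regions. The order of the 4 lists was nearly that of the whole series, with control ethanol lowest and knockdown ethanol highest. In the mirror pattern the shares were 5.66, 2.92, 6.12 and 8.57%, and only for knockdown ethanol did its interval (7.77 to 9.43%) lie clear of the one here (5.24 to 7.10%). At gene ends, 47 of the 150 regions (31.3%) had H3K9ac in some list, against 188 of 1773 (10.6%) inside genes and 57 of 632 (9.02%) outside them. The mirror pattern gave 33.1, 12.7 and 13.9%, so the higher share at gene ends was not particular to these regions.

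**Figure D4:**
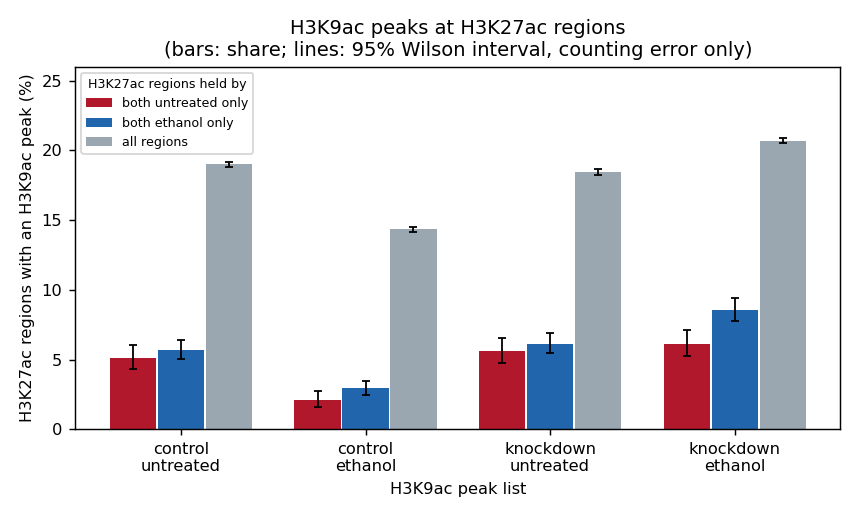
Share of H3K27ac regions with an H3K9ac peak (y axis, percent) in each of the 4 H3K9ac lists (x axis), for regions in both untreated lists only, regions in both ethanol lists only, and all regions, with 95% Wilson intervals that cover counting error only. Regions in both untreated lists only stand between 2.11 and 6.11%, below the 14.3 to 20.7% of all regions in every list.

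It was in both untreated and neither ethanol H3K9ac list at 11 regions (0.431%), against 0.616% of all H3K27ac regions. The opposite H3K9ac pattern was found at 4 regions (0.157%), against 0.263% of all. Both shares were below the background and their intervals, 0.241 to 0.769% and 0.0609 to 0.402%, held it. Fewer of these regions had any H3K9ac, 11.4% against 26.2% of all regions, and counted over regions with any H3K9ac the shares were higher than those of all. The same pattern was then 3.77% of 292 against 2.35% of 39158, and the opposite pattern 1.37% against 1.00%. In the other patterns of 2 lists these shares ran from 2.84 to 5.33% and from 0 to 2.68%.
Within control mice, 101 regions (3.95%, background 5.88%) had H3K9ac in the untreated list and not in the ethanol list, and 25 (0.978%, background 1.22%) the reverse. Of these 126 regions, 80.2% were on the untreated side, with an interval of 72.3 to 86.2%, and over all H3K27ac regions that share was 82.8%. Over regions with any H3K9ac, both directions were more frequent here than in all regions, with 34.6% against 22.5% for untreated alone and 8.56% against 4.65% for ethanol alone. The other patterns of 2 lists gave 29.3 to 37.5% and 6.30 to 10.6%, so this was not particular to these regions.
Within knockdown mice, 73 regions (2.86%, background 2.79%) had H3K9ac in untreated alone and 86 (3.37%, background 5.03%) in ethanol alone. Over regions with any H3K9ac these were 25.0% against 10.6% of all, and 29.5% against 19.2%. In the other patterns of 2 lists they were 18.1 to 28.4% and 28.7 to 38.8%. Of the 159 regions here with H3K9ac in a single knockdown list, 45.9% were on the untreated side, with an interval of 38.4 to 53.7%. Over all H3K27ac regions that share was 35.7%. Regions in the control ethanol and knockdown untreated lists only stood at 48.4% (41.5 to 55.5%). Those in both control lists only, which hold neither knockdown list, stood at 43.1% (34.7 to 51.9%). The mirror pattern stood at 35.4% (30.7 to 40.5%) and both knockdown lists only at 34.9% (31.3 to 38.7%). Control untreated with knockdown ethanol only stood at 31.8% (27.4 to 36.5%). The interval here lay above the share of all regions. It overlapped those of all these patterns except control untreated with knockdown ethanol. The H3K9ac and H3K27ac lists of a group may come from the same chromatin, and peaks of both may have been called against shared inputs.

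Of the 11 regions where both marks were in untreated lists only, the highest-ranked lay near Abhd2, which encodes a lipid hydrolase (chr7:79246143-79246433). Its H3K27ac scores were 9.57 and 8.92, and its H3K9ac scores 5.50 in untreated controls and 5.58 in untreated knockdown mice. At Pakap the H3K27ac scores were 6.88 and 8.92 and the H3K9ac scores 10.8 and 6.48. At Vcpip1, the gene of a deubiquitinating enzyme, they were 6.82 and 8.07 for H3K27ac and 10.1 and 5.08 for H3K9ac. The highest knockdown H3K9ac score among the 10 highest-ranked of these regions was at the start of Thumpd3, 18.1, with 7.10 in untreated controls, where H3K27ac scored 3.42 (control) and 4.22 (knockdown). The start inside Ccdc85a, whose sequence is given above, had H3K9ac scores of 3.89 and 11.4 and H3K27ac scores of 6.88 and 4.22. The other 5 were in or at Csrnp3, Nsmf, Pou2f1, Igsf3 and Fstl1, and of all 10 only the Fstl1 region had no ethanol H3K27ac peak within 1 kb. The eleventh, inside Nr3c1, the gene of the glucocorticoid receptor, scored 3.73 and 3.55 for H3K27ac. The Xiap start went the other way. There H3K27ac was in untreated lists only, with scores of 9.57 and 8.92, and H3K9ac in ethanol lists only, with scores of 7.07 in controls and 6.95 in knockdown mice.

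The regions were spread thinly over genes. They lay inside 1360 protein-coding genes, of which 1043 held 1 region, 202 held 2 and 115 held 3 or more. The genes that held the most were not the longest, and Dlg2, of 1973 kb, held 3 of its 92 H3K27ac regions. Tcf4, which encodes a transcription factor of the E-protein family, held 9 of its 278 H3K27ac regions, with control scores of 3.73 to 8.65, knockdown scores of 3.55 to 7.24, and an ethanol peak within 500 bp of 8 of the 9. Myt1l, which encodes a zinc finger factor of neurons, held 8 of 179, and 4 of these had an ethanol peak within 500 bp. Ank, which encodes a pyrophosphate transporter, held 7 of 111 in a shorter gene of 128 kb. Nedd4l, which encodes a ubiquitin ligase, held 7 of 147, and Anks1b 7 of 203. Nav2 (7 of 243) and Kalrn (7 of 247) held as many as the last 3 with a lower share. Inside all protein-coding genes the share was 1.73% (1859 of 107750). The genes named here were picked for holding the most, so their shares are raised by that choice. None of the regions in the first 5 of these genes carried H3K9ac in any list. The mirror pattern was present in the same genes, with 3 regions in Tcf4, 5 in Myt1l, 6 in Ank, 2 in Nedd4l and 4 in Anks1b.
The widest region, 1088 bp, lay in Zmiz1, which encodes a transcriptional coregulator, and scored 3.78 and 3.62. It was followed by regions in Lct (887 bp), Gnao1 (848 bp), near Tmem218 (809 bp) and in Acsl6 (795 bp). Of these 5 regions, 4 had a smaller percentile under 15.

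For 23 gene lists, H3K27ac regions inside a gene or within 10 kb of it were counted, and the share in both untreated lists only was set beside the 1.70% (2119 of 124863) of all protein-coding genes. Of 529 symbols, 527 matched the gene table. The interval held 1.70% for 21 of the 23 lists, was above it for 1 and below it for 1. The intervals were not corrected for the number of lists, so no list is singled out by this count.

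**Figure D5:**
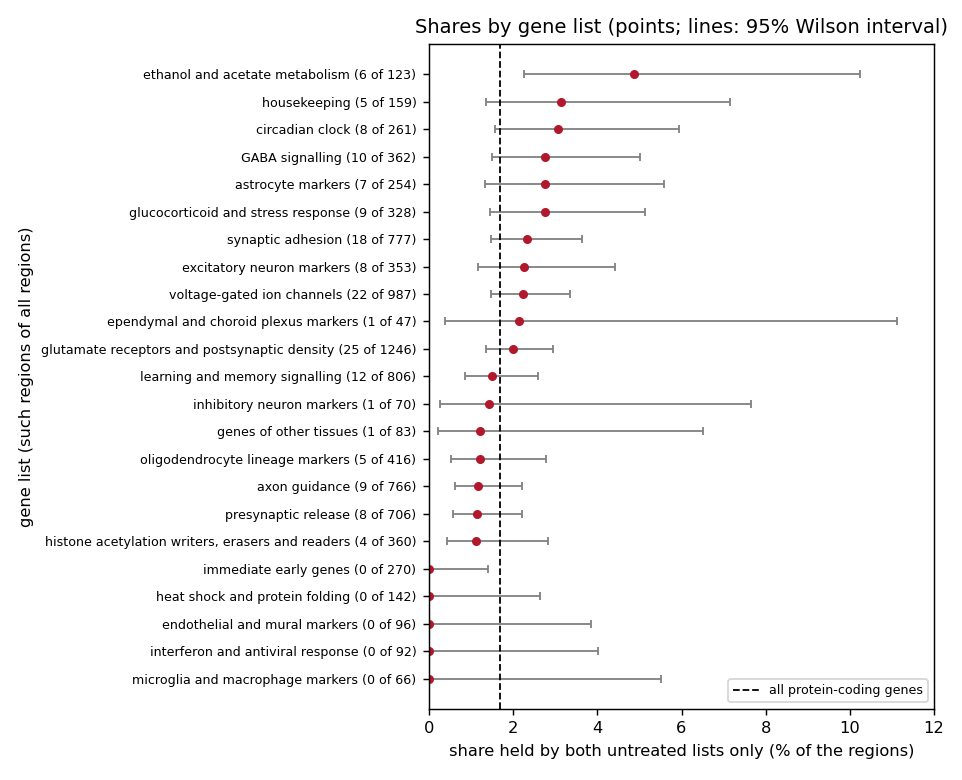
Share of the H3K27ac regions in or within 10 kb of each gene list's genes that are in both untreated lists only (x axis, percent, points) with 95% Wilson intervals (lines), for 23 lists (y axis, with counts) and the 1.70% of all protein-coding genes (dashed line). Only ethanol and acetate metabolism (4.88%, interval from 2.25%) and immediate early genes (0 of 270, interval to 1.40%) leave the dashed line outside their interval.

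Genes of ethanol and acetate metabolism held 6 such regions of 123 (4.88%, interval 2.25 to 10.2%), in 3 of the 24 genes. Counted inside genes only, they held 5 of 83 (6.02%), and within 50 kb 7 of 237 (2.95%, interval 1.44 to 5.97%), which holds the share of all genes. The 6 regions lay at Acss1, Aldh2 and Slc16a7.
Acss1 encodes the mitochondrial enzyme that makes acetyl-CoA from acetate, and it had 3 regions. Inside the gene, chr2:150661133-150661324 scored 3.73 in untreated controls and 5.48 in untreated knockdown mice, and chr2:150662877-150663143 scored 6.82 and 4.22. Outside it, chr2:150671040-150671304 scored 6.88 and 4.22. The nearest ethanol peaks of the 3 were 245, 412 and 67 bp away, so each stood beside an ethanol peak.
Aldh2 encodes the mitochondrial aldehyde dehydrogenase that turns acetaldehyde into acetate. Its region, chr5:121592145-121592386, scored 6.82 and 6.44, lay 54 bp (control) and 209 bp (knockdown) from ethanol peaks, and carried H3K9ac in untreated knockdown mice only.
Slc16a7 encodes a monocarboxylate transporter of neurons. Its regions scored 4.47 and 5.67 (chr10:125298098-125298273) and 5.23 and 6.44 (chr10:125371451-125371670). The first stood alone, with ethanol peaks 26156 and 23686 bp away, and the other lay 545 bp from a control ethanol peak. Of the 6 regions, only that of Aldh2 had an H3K9ac peak in any list.

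Immediate early genes, which neurons switch on within minutes of activity, held none of their 270 regions in this pattern, with an interval up to 1.40%. Within 50 kb of the same genes there were 6 of 627 (0.957%, interval 0.439 to 2.07%), which holds the share of all genes. The mirror pattern held 7 of the 270 regions (2.59%), beside 2.92% of the regions of all protein-coding genes. Markers of microglia (0 of 66), endothelial and mural cells (0 of 96), interferon response genes (0 of 92) and heat shock genes (0 of 142) also held none, with intervals that reach up to 5.50, 3.85, 4.01 and 2.63%. At the region numbers of these last 4 lists within 10 kb, a share equal to that of all genes could not be told from 0. Within 50 kb, microglia markers held 7 of 225 (3.11%), heat shock genes 7 of 402 (1.74%) and interferon response genes 2 of 259 (0.772%). Endothelial and mural markers still held 0 of 191, with an interval up to 1.97%. In that window the interval of each of these 4 lists held the 1.70% of all genes.

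Genes of synapses held many of the regions, and their shares stood near the background of 1.70%. Glutamate receptors and postsynaptic proteins held 25 of 1246 (2.01%) in 14 of 28 genes. Dlgap1, which encodes a postsynaptic scaffold, had 5, and its strongest (chr17:70337964-70338196) scored 11.5 in untreated controls and 8.07 in untreated knockdown mice, with ethanol peaks 32127 and 4059 bp away. Gria1, which encodes an AMPA receptor subunit, had 4, of which 3 lay over 2 kb from any ethanol peak, and its scores were 4.47 to 6.04 in controls and 4.22 to 5.67 in knockdown mice. Grin2b, which encodes an NMDA receptor subunit, had 3, with scores of 7.65 to 8.65 in untreated controls and 4.22 to 5.48 in untreated knockdown mice. The scaffold gene Dlg2 also had 3.
GABA signalling genes held 10 of 362 (2.76%) in 4 of 20 genes. Gabbr2, which encodes a subunit of the GABA-B receptor, had 5 of them, all inside the gene. Its highest (chr4:46925302-46925633) scored 6.88 and 7.24. Gabrb1 (a GABA-A receptor subunit) and Slc6a11 (a GABA transporter) had 2 each, and Slc12a5, which encodes the neuronal chloride exporter, had 1.
Voltage-gated channel genes held 22 of 987 (2.23%) in 10 of 27 genes, led by the calcium channel genes Cacna1d (4), Cacna1c (3) and Cacna1e (3). The region inside Cacna1e at chr1:154786579-154786736 scored 13.5 in untreated controls and 7.24 in untreated knockdown mice, with ethanol peaks 239 and 278 bp away. In Cacna1d, the region at chr14:30056113-30056387 scored 9.57 and 7.24, and the nearest ethanol peaks were 43704 and 17071 bp away. Both stand out from the list by score and differ in how close ethanol peaks lay.
Synaptic adhesion genes held 18 of 777 (2.32%) in 9 of 30 genes, with 5 in Cadm1 and 4 in Ncam1. Learning and memory signalling held 12 of 806 (1.49%) in 6 of 24 genes, with 4 at the phosphodiesterase gene Pde10a and 2 in Camk2b, the gene of a kinase subunit at synapses. The region of Camk2d, another subunit, stood 125490 and 55652 bp from ethanol peaks and scored 5.23 and 5.52. Presynaptic release genes held 8 of 706 (1.13%) and axon guidance genes 9 of 766 (1.17%). For each of these 7 lists the interval held 1.70%.

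Among cell type markers, excitatory neuron genes held 8 of 353 (2.27%). Besides Neurod6, these lay at Neurod2 (2), Fibcd1, Prox1, Bcl11b, Emx1 and Nptx1. At Fibcd1, a marker of hippocampal pyramidal neurons, the start-side region scored 6.04 and 5.67, had ethanol peaks 142 and 57 bp away and carried H3K9ac in untreated controls only. Astrocyte genes held 7 of 254 (2.76%), with 3 in Slc4a4, which encodes a bicarbonate cotransporter. A Slc4a4 region (chr5:88890227-88890431) had the highest knockdown score of the astrocyte regions, 12.5, and scored 5.10 in untreated controls. Oligodendrocyte genes held 5 of 416 (1.20%), including 2 in Mbp, the gene of myelin basic protein, with scores of 7.75 and 4.93 at chr18:82484792-82485231 and 6.04 and 4.93 at chr18:82540550-82540844. Inhibitory neuron genes held 1 of 70, at the start of Lamp5, which carried H3K9ac in untreated knockdown mice only. Genes of other tissues held 1 of 83, in the cardiac troponin gene Tnnt2. Neuronal and glial markers were thus both represented, and the interval of each of these 5 lists held the background.

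Circadian clock genes held 8 of 261 (3.07%, interval 1.56 to 5.93%). Of these, 3 lay in Arntl, which encodes the clock activator BMAL1, with control scores of 3.73 to 7.21 and knockdown scores of 3.55 to 6.44. Cry2, a clock repressor, had 2, and Nr1d1, Hlf and Csnk1d had 1 each. Genes of the glucocorticoid and stress response held 9 of 328 (2.74%). Zbtb16 had 4 of these, and the region in Crhr1, the gene of a receptor of corticotropin-releasing hormone, was the highest in controls, with scores of 10.5 and 5.67. Genes that write, erase or read histone acetylation held 4 of 360 (1.11%), 1 each in the acetyltransferase gene Kat6b (6.03 in untreated controls and 3.50 in untreated knockdown mice), the deacetylase genes Hdac7 (5.23 and 4.13) and Hdac9 (5.23 and 5.67), and near the bromodomain gene Brd9 (4.47 and 4.93). Housekeeping genes held 5 of 159 (3.14%), of which 3 lay near Rab7 and the others at Rpl13a and Gapdh.

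Some regions could not be placed with certainty. In 7 pairs, 14 regions had the same width, scores and distances as another region, on chromosomes 4 and 14. They include the pair in Il11ra2 and Gm13305 and pairs at Fam205a4 with Fam205a3, and Anxa11 with Gm9780. Each such pair may stand for a single place in the genome counted as 2 regions.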

How the data were processed

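Chromatin from dorsal hippocampus tissue of single mice was immunoprecipitated for H3K9ac or H3K27ac and sequenced as single-end reads, per the labels. The build was GRCm38/mm10 and the tools were MACS2, STAR 2.5.2a, bcl2fastq and bedtools, in no stated order, per the submitters' processing notes. The deposited files are 8 peak lists, 1 per mark, vector and treatment, and the list names give a false discovery rate of 0.001. The authors' score of each peak was taken to be a −log10 q-value, because every deposited score was at least 3.00, the −log10 of 0.001. How the 3 replicates and the inputs were combined was not stated in any label or header. Read depth behind the lists is unknown, so Wilson intervals (95%) cover counting error over regions only. No column of per-sample values was left unused (0).

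Peaks on assembled chromosomes were merged where they overlapped or touched (bedtools 2.31.1, Python 3.11.15, pandas 2.3.3, numpy 2.4.6, scipy 1.17.1, matplotlib 3.10.9), and a region was held by a list that overlapped it by 1 bp. Scores were ranked within a list only. Gene positions came from RefSeq GRCm38.p6, and a gene end was within 1 kb of either end of a protein-coding gene. Regions were ranked by the smaller of their 2 score percentiles. Named regions were the 15 highest, the 15 highest at gene ends, the 10 highest with H3K9ac in the same pattern, the 5 widest, those in the 5 genes that held the most, the lowest 3, the lowest 3 just outside the rule and the 3 highest of each gene list. Some of these are not reported here. Other names were chosen after their values were seen. The regions and gene lists were chosen with earlier results of these data known. With 1 list per group no test across groups was made. The scripts were tested on simulated peak lists. Alternatives tried were other merge gaps, stricter scores, equal list lengths, a distance limit, other gene windows, scaffolds included and a cover of 50% of the region. Input libraries have no list of their own and were not used.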

Additional observations from a re-analysis of the deposited data

Results flagged for a closer look

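Off the assembled chromosomes, on data that no comparison above uses, there were 240 further H3K27ac regions, and 7 of them were in both untreated lists only. None (0) was in both ethanol lists only. All 7 lay on unlocalised scaffolds of chromosome 4, and 6 of them had the same width and control score as a region on chromosome 4 itself.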

How the results depend on the processing

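No paired analysis was possible because each list stands for all 3 replicates of a group, and for the same reason no replicate could be left out. Of 129 values under alternatives for 33 results, 80 stayed within counting error or 1.5 times the value above and 49 moved. Reversals were not counted. The 50% cover rule was added after seeing the data, since the planned rule of 50% of the shorter of peak and region is met by every peak of a merged region. Values under that planned rule could not change, and they are counted among the 80. Under all alternatives run, regions in both untreated lists only were fewer than those in both ethanol lists only, and the gap was smaller with lists of equal length, at 2879 and 3527. With all peaks at 2 times the lowest score or more, the counts were 1385 and 2844; with the 2 lists that hold the pattern kept from their medians up and the other 2 kept whole, 119 and 350; without regions near (500 bp) a peak of the other treatment, 952 and 2103. The gene-end share was 4.71% with gaps of 200 bp merged, 7.08% with the stricter score, 3.99% with the distance limit, 3.37 and 11.7% with windows of 0.5 and 2 kb, and 10.8% with all genes. H3K9ac shares, in the order control untreated, control ethanol, knockdown untreated and knockdown ethanol, were 3.98, 1.57, 4.43 and 4.99% with gaps merged, 12.8, 4.98, 11.3 and 14.0% with the stricter score, 7.56, 3.36, 8.40 and 8.40% from the median score, 3.89, 1.58, 3.57 and 4.73% with the distance limit, 7.47, 3.60, 7.47 and 8.30% with the cover rule, and 13.1, 7.59, 12.7 and 14.8% with H3K9ac counted within 500 bp. With lists of equal length the knockdown ethanol share was 7.12%. Regions with the same H3K9ac pattern numbered 3 with gaps merged, 2 from the median score, 1 with the distance limit and 23 with the cover rule. The opposite pattern numbered 1, 1 and 1 under the first 3 of these, 7 with equal lengths and 8 with H3K9ac within 500 bp. Counted inside genes only, the shares for inhibitory neuron, ependymal and housekeeping genes were 0, 0 and 0%. The cause of these moves was not tested.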

Other observations

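Regions over 10 kb from any ethanol peak lay outside genes more often than closer regions. Of the 198 regions over 10 kb from an ethanol H3K27ac peak, 83 (41.9%) lay outside genes and 33 (16.7%, interval 12.1 to 22.5%) carried H3K9ac in some list. Of the 436 regions within 100 bp, 99 (22.7%) lay outside genes and 59 (13.5%, interval 10.6 to 17.1%) carried H3K9ac. For the 1167 over 100 and up to 500 bp away, these shares were 23.8% and 12.9% (interval 11.1 to 14.9%). Of the 320 regions over 500 and up to 1000 bp away, 67 (20.9%) lay outside genes and 19 (5.94%, interval 3.83 to 9.09%) carried H3K9ac. For the 434 over 1000 bp and up to 10 kb away, the shares were 24.2% and 7.14% (interval 5.08 to 9.96%). H3K9ac thus did not separate the far class from regions within 500 bp, since their intervals overlap. Whether regions of other patterns also lie outside genes more often when far from a peak was not tested. Median knockdown scores were 4.99 in the far class and 4.93 in every other class. Regions of Atp2b2, which encodes a calcium pump of the plasma membrane, show the middle distances: all 6 lay between 629 and 4090 bp from an ethanol peak.
Few regions lay side by side. Another such region was within 1 kb of 85 and within 10 kb of 340, and the median distance to the nearest other one was 106 kb.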
